A study of Mus musculus with 51 samples.

Results

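The comparison described here set Bmal1 knockout mice (labelled Bmal1KO) against floxed controls of the same line (genotype Bmal1 fx/fx, called Bmal1Fx here) on a high-fat diet, in batch 2 of the study; the labels number the batches and do not say what they stand for. It was chosen by the genotype, diet and batch labels, with no measured value, and holds 12 of the 51 libraries of the study. These are knockout animals 6, 7, 8 and 9 and control animals 8 to 15, with 1 library per animal. All genes of the batch table were tested. The study measured RNA from whole mouse gastrocnemius, the calf muscle, by 3′ tag sequencing of polyadenylated RNA, and asked how the muscle clock protein BMAL1 and the HIF pathway act on glucose metabolism in obesity. Batch 2 also held Vhl knockouts, Vhl and Bmal1 double knockouts and the floxed controls of each line, all on the high-fat diet, and batch 1 held other Bmal1 knockouts and controls on high-fat diet or regular chow. The design text describes the Bmal1 deletion as specific to skeletal muscle. No source used here states the Cre driver, the floxed exons, the sex or age of the mice, the length of the diet or the hour of harvest. The values therefore stand for 1 unstated hour, or a mix of hours, of the daily cycle.

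BMAL1 (gene Arntl) and CLOCK form a dimer that binds E-box sequences and switches on clock-controlled genes, among them its own repressors of the PER and CRY families and the nuclear receptors REV-ERB alpha and beta (Nr1d1, Nr1d2). The REV-ERBs in turn repress Arntl, Clock, Npas2, Cry1 and Nfil3. In skeletal muscle the clock is known to time glucose uptake, glycogen handling and fuel choice, and HIF, an oxygen-sensing transcription factor that VHL marks for destruction, drives glycolytic genes.

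The 4 knockout libraries held 10234154 to 14005155 counts and the 8 control libraries 9910516 to 12768172. Levels of single genes are given as CPM, the share of a library's counts scaled to a common total, after TMM scaling. Summed CPM and shares of marker lists are given without TMM scaling. Pairs of libraries of the same genotype correlated at 0.976 to 0.984 across genes, and pairs of different genotype at 0.965 to 0.977. The first principal component (36.5% of the variance of the 500 most variable genes) separated the genotypes. The second (20.2%) separated controls 8 and 15 and knockouts 6 and 7 from the others of their group. These 4 libraries held Krt5, Krt14 and Lor transcripts of skin keratinocytes (13 to 139 counts each), and the other 8 held 0 or 1 of each. Control 12 and knockout 8 stood apart in immunoglobulin kappa (Igkc), with 993 and 672 counts against 13 to 56 in the rest. The 15 muscle fibre markers took 16.2 to 17.0% of the counts in knockouts and 15.8 to 17.0% in controls, and the muscle genes Acta1, Ckm, Ttn and Myh4 were high in every library. Transcripts of the mitochondrial genome took 29.5 ± 2.62% of the counts in knockouts (SD, n = 4) and 31.3 ± 1.31% in controls (n = 8; exact two-sided permutation p = 0.158 over 495 splits).

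The targeted gene, Arntl (chr7:113207465-113314126 on the plus strand, GRCm38), was measured at 9.99, 8.42, 8.16 and 10.5 CPM in knockouts 6, 7, 8 and 9, and from 8.6 to 12.9 CPM in the controls, median 11.2. The ranges overlapped, and the difference did not pass the test (log2 fold change -0.24 ± 0.13, adjusted p = 0.24, edgeR quasi-likelihood test with Benjamini-Hochberg adjustment over 13093 genes). Against all 20 floxed controls of batch 2, a comparison in which 17.6% of all genes were called, the log2 fold change was -0.54 with an adjusted p of 0.00032. A 3′ tag can lie outside the deleted exons, so the level of Arntl does not check the labels here. Fold changes are given on the log2 scale with their standard errors, and means with SD (knockouts n = 4, controls n = 8).

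Of 13093 genes tested, 1820 (13.9%) differed between genotypes at an adjusted p under 0.05, with 909 higher (6.94%) and 911 lower (6.96%) in the knockouts. Changes over 2-fold were more often losses, with 100 genes higher and 195 lower. The median log2 fold change over all genes was -0.01. In 1156 of the 1820 genes (63.5%) the 4 knockouts lay entirely above or below the 8 controls; such separation was seen in 9.95% of all genes tested. Without the 4 libraries with keratinocyte transcripts, which leaves 2 knockouts against 6 controls, 990 of 13973 genes passed. Of these, 48.7% were higher, and 950 were among the 1820. List counts from that fit, given further on, stand beside 990 of 13973 and not beside 6.94% and 6.96%. With no scaling factor in place of TMM, 69.3% of 1995 called genes were higher, against 49.9% here, and the median log2 fold change was 0.07.

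**Figure D1:**
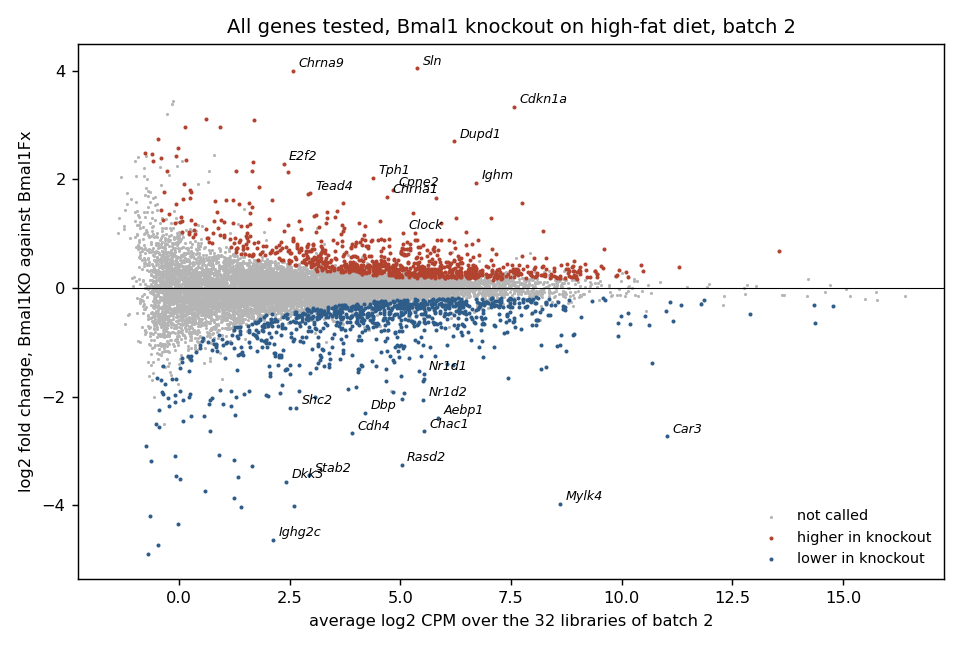
Log2 fold change of Bmal1KO against Bmal1Fx for each of 13093 genes (vertical axis) against its average log2 CPM over the 32 libraries of batch 2 (horizontal axis); red and blue points are the 909 higher and 911 lower genes at an adjusted p under 0.05, grey points the rest. The genes farthest from 0 include Sln and Cdkn1a above and Mylk4 and Car3 below.

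The genes that BMAL1 and CLOCK drive through E-boxes were lower as a group. Of 13 listed outputs, 11 were called lower and 0 higher, with a median log2 fold change of -1.08, beside 6.96% of all genes called lower. Without the 4 keratinocyte-bearing libraries 9 were called lower. Dbp, a PAR bZIP transcription factor and a standard read-out of E-box activity, was at 6.17, 6.09, 5.53 and 4.76 CPM in knockouts 6, 7, 8 and 9 and from 18.5 to 34.3 CPM in the controls, median 30.3. Nr1d1 was at 19.1, 19.3, 19.5 and 16.5 CPM in the 4 knockouts and from 45.3 to 63.2 CPM in the controls, median 57.4, and Nr1d2 at 15.5, 13.3, 14.8 and 14.9 CPM in the 4 knockouts and from 53.9 to 69.4 CPM in the controls, median 61.5. In these 3 genes every knockout lay below every control (log2 fold changes -2.30 ± 0.17, -1.59 ± 0.09 and -2.06 ± 0.13, largest adjusted p = 1.6e-12).

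The other PAR bZIP factors fell with Dbp. Tef went from 117–148 CPM in the controls to 60.4–69.5 CPM in the knockouts (each from the lowest to the highest animal, as in the ranges that follow, log2 fold change -1.08 ± 0.07, adjusted p = 4.8e-16), and Hlf from 13.2–20.2 to 3.82–5.33 CPM (log2 fold change -1.85 ± 0.15, adjusted p = 7.4e-14). Ciart, which encodes a repressor of CLOCK and BMAL1, showed the lowest log2 fold change among the clock genes, -4.04 ± 0.39 (adjusted p = 1.4e-11), at levels of 0.0674 to 0.49 CPM in knockouts and 2.11 to 5.44 CPM in controls. The DEC repressors Bhlhe40 and Bhlhe41 fell as well. Bhlhe40 went from 32.6–52 to 18.2–27.5 CPM (adjusted p = 2.2e-10) and Bhlhe41 from 54.4–64.8 to 26.5–33.1 CPM (adjusted p = 9.0e-14). The period genes Per3, Per2 and Per1 fell (log2 fold changes -1.59 ± 0.22, -0.97 ± 0.22 and -0.64 ± 0.22, largest adjusted p = 0.047). For Per1 and Per2 the genotypes overlapped. The call of Per1 was lost in 9 of the 12 fits that left out 1 animal (adjusted p of up to 0.17). The call of Per2 was lost without the 4 keratinocyte-bearing libraries (adjusted p = 0.17). Cry2 and Tspan4 did not pass the test (log2 fold changes 0.11 ± 0.11 and -0.33 ± 0.19, adjusted p = 0.59 and 0.28).

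To show the sequences these transcripts start from, the RefSeq promoter windows (250 bases before to 50 bases after the start, GRCm38.p6) were searched on both strands for the E-box CACGTG and the related CACGTT. Windows were present for 11 of the 13 outputs, and 5 of the 11 held CACGTG. The share was 8.09% over all 27025 genes searched and 12.0% over the 9522 tested genes with a window. Among called genes with a window it was 11.7% of those higher and 12.2% of those lower, near the share of tested genes. The search describes the letters in these windows only. The windows of Dbp, Hlf, Nr1d2 and Per3 held neither motif. Ciart held 3 copies of CACGTG, at 116, 58 and 44 bases before the start, and Tef held 1 copy in each of its promoter windows. Nr1d1 held the CACGTT motif, read as AACGTG on this strand, 28 bases before the start. Bhlhe41 and Per1 also held CACGTG, as did Tspan4, which was not called. Cry2, also not called, held the CACGTT motif. Ciart, Tef and Nr1d1 are printed as examples among the motif holders whose transcripts fell in every knockout, as Bhlhe41 did too. Motifs are in capitals, and each window reads 5′ to 3′ on the strand of its gene.
Ciart, chr3:95882179-95882478, minus strand: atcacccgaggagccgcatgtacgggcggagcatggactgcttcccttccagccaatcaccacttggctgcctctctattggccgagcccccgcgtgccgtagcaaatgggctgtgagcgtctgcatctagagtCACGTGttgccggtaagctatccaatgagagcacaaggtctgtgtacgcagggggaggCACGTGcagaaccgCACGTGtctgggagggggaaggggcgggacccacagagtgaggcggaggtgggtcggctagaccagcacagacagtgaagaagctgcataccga
Tef, chr15:81811164-81811463, plus strand: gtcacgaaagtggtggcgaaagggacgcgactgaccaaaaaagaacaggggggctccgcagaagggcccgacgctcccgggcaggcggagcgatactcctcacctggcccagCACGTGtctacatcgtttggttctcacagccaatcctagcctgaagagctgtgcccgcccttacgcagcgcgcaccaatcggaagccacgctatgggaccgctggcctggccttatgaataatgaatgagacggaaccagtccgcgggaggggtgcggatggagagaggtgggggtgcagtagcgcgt
Nr1d1, chr11:98775328-98775627, minus strand: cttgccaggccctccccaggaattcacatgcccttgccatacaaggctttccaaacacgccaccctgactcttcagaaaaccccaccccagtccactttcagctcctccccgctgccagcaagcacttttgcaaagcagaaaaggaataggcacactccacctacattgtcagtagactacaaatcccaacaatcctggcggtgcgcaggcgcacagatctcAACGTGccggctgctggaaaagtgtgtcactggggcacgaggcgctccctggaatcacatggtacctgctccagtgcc

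Most genes that the REV-ERBs repress went the other way. Of 6 tested, 4 were called higher and 0 lower (median log2 fold change 0.67, beside 6.94% of all genes called higher). Arntl, the targeted gene, is on this list and was not called (log2 fold change -0.24). Against all 20 floxed controls, where 17.6% of all genes were called, 4 were called higher and 1, Arntl, lower. In batch 1, 2 of the list were called higher and 1 lower, beside 3.82% and 5.18% of all genes there. Clock was at 48.9, 49.8, 53.3 and 52.9 CPM in knockouts 6, 7, 8 and 9 and from 21.9 to 28.4 CPM in the controls, median 25.1, with every knockout above every control (log2 fold change 1.02 ± 0.07, adjusted p = 5.1e-16). Npas2, the paralog of Clock, rose from 0.214–0.662 to 0.962–2.84 CPM (log2 fold change 1.77 ± 0.35, adjusted p = 1.6e-04) and Cry1 from 5.87–7.19 to 9.7–13.3 CPM (log2 fold change 0.72 ± 0.13, adjusted p = 6.7e-05). Nfil3, a repressor that competes with the PAR bZIP factors for their sites, also rose (log2 fold change 0.63 ± 0.14, adjusted p = 0.0019), though knockout 9 (33.9 CPM) lay within the control range. Without the 4 keratinocyte-bearing libraries its call was lost (log2 fold change 0.41, adjusted p = 0.25). Elovl5, a fatty acid elongase, did not pass the test (7.55 ± 0.953 against 7.71 ± 1.05 CPM, adjusted p = 0.93). Rora, a nuclear receptor that acts on the same sites as an activator, fell (log2 fold change -0.72 ± 0.07, adjusted p = 6.2e-12). Across the 19 core clock genes, 4 were called higher and 9 lower, beside 6.94% and 6.96% of all genes.

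**Figure D2:**
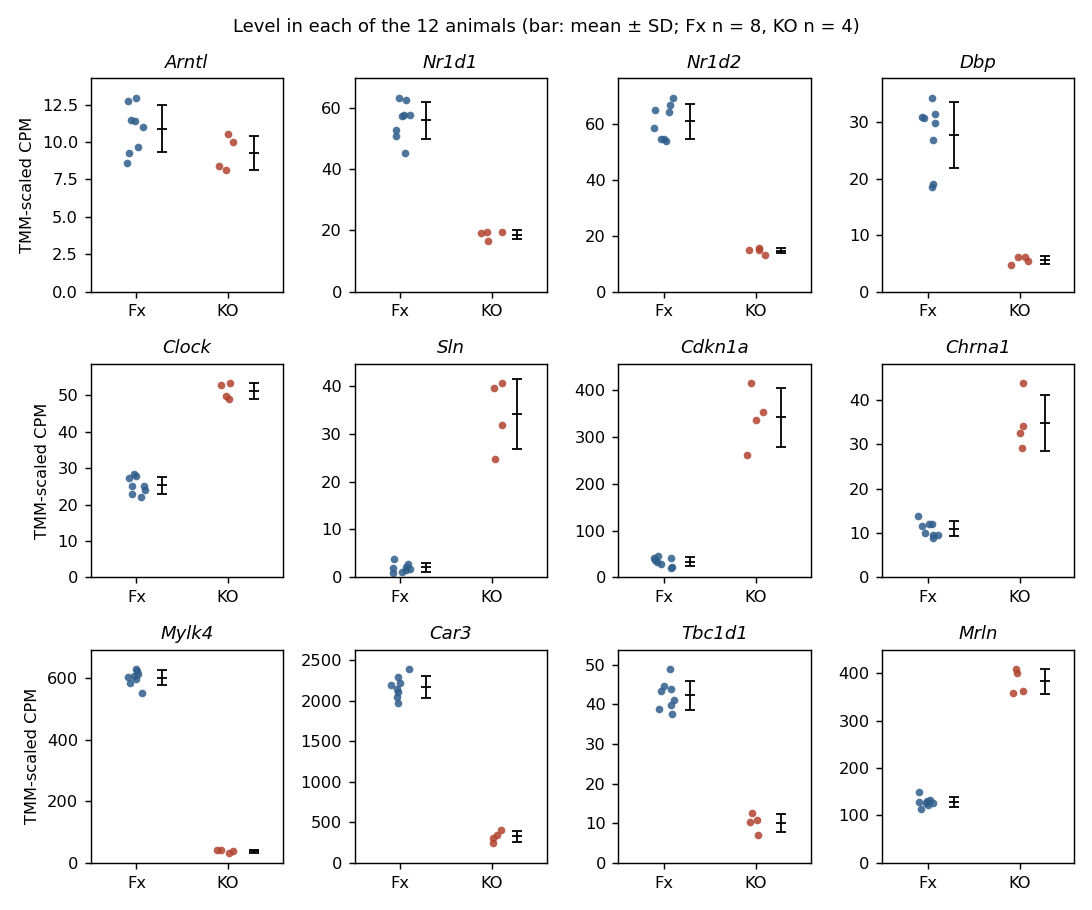
TMM-scaled CPM (vertical axes, each from 0) of 12 genes in each animal, for 8 controls (Fx, blue) and 4 knockouts (KO, red); black bars give the mean ± SD. The genotypes overlap for Arntl and are apart for the other 11 genes.

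The highest genes were ranked among called genes with an average log2 CPM of at least 2 over the 32 libraries of batch 2. Predicted, Riken and mitochondrial genes were left out. First among these was Sln (chr9:53850164-53854560), which encodes sarcolipin, an inhibitor of the SERCA calcium pump. It was at 31.7, 24.8, 39.5 and 40.5 CPM in knockouts 6, 7, 8 and 9 and from 0.992 to 3.89 CPM in the controls, median 1.91, a rise in every knockout over every control (log2 fold change 4.05 ± 0.30, adjusted p = 3.1e-11). Chrna9, an acetylcholine receptor subunit, was near the floor in controls, at 0 to 0.413 CPM, and at 1.44 to 3.37 CPM in knockouts (log2 fold change 4.00 ± 0.60, adjusted p = 8.6e-06). Its levels in these 12 libraries lay under that limit, which its average over the 32 passed. Cdkn1a (chr17:29090976-29100727), which encodes the cell-cycle inhibitor p21, was at 262, 414, 336 and 353 CPM in knockouts 6, 7, 8 and 9 and from 20.7 to 46 CPM in the controls, median 34.9 (log2 fold change 3.34 ± 0.21, adjusted p = 1.6e-12). In all 3 genes, chosen for large rises, the genotypes did not overlap, as in 63.5% of all called genes.

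Further genes with large rises served varied roles. Dupd1, a dual-specificity phosphatase of muscle, went from 22.6–34.2 to 167–204 CPM (log2 fold change 2.70 ± 0.17, adjusted p = 1.3e-12). The transcription factors E2f2 of the cell cycle and Tead4 of the Hippo pathway rose with no overlap (log2 fold changes 2.29 ± 0.18 and 1.74 ± 0.16, largest adjusted p = 2.4e-12). So did Atp8a2, a phospholipid flippase, and Cpne2, a copine that binds membranes with calcium (log2 fold changes 2.13 ± 0.18 and 1.80 ± 0.11, largest adjusted p = 1.4e-13). Tph1, which makes the serotonin precursor, rose from 0.284–1.41 to 2.81–4.11 CPM (log2 fold change 2.03 ± 0.26, adjusted p = 1.3e-07). Srrm4os, annotated as antisense to Srrm4, rose (log2 fold change 1.73 ± 0.15, adjusted p = 2.9e-13). The strand setting of the counting is not stated, so its reads cannot be told from those of its partner.

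Of the 12 genes chosen for the lowest log2 fold changes, an immunoglobulin gene given further on came first and Mylk4 (chr13:32700834-32783954), a myosin light chain kinase of striated muscle, second. Mylk4 was at 43.3, 31, 41.2 and 37.3 CPM in knockouts 6, 7, 8 and 9 and from 552 to 631 CPM in the controls, median 605, with no overlap (log2 fold change -3.98 ± 0.11, adjusted p = 8.1e-26). Car3, carbonic anhydrase III, was at 242, 412, 308 and 343 CPM in knockouts 6, 7, 8 and 9 and from 1974 to 2393 CPM in the controls, median 2169 (log2 fold change -2.73 ± 0.14, adjusted p = 1.6e-14). Rasd2, which encodes the small GTPase Rhes, was at 4.92 to 5.69 CPM in knockouts and 42.3 to 71 CPM in controls (log2 fold change -3.26 ± 0.15, adjusted p = 1.2e-19). All 12 genes, chosen for large fold changes, were separate between the genotypes, as were 63.5% of all called genes.

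The other genes with the lowest log2 fold changes encode proteins of varied roles. Dkk3, a secreted Dickkopf family protein, fell from 6.06–12.3 to 0.628–0.979 CPM (log2 fold change -3.57 ± 0.26, adjusted p = 5.8e-15). Aebp1, a matrix-associated protein, fell from 68–88.9 to 12.1–17.3 CPM (log2 fold change -2.39 ± 0.10, adjusted p = 4.2e-24). Stab2, a hyaluronan scavenger receptor, fell from 4.89–7 to 0.359–0.686 CPM (log2 fold change -3.45 ± 0.21, adjusted p = 9.0e-18). Cdh4, R-cadherin, fell from 15.1–28 to 3.44–3.93 CPM (log2 fold change -2.67 ± 0.23, adjusted p = 1.7e-10). Chac1, a glutathione-degrading enzyme of the integrated stress response, fell from 40.6–72.3 to 3.86–20.5 CPM (log2 fold change -2.64 ± 0.37, adjusted p = 4.4e-06). Shc2, a signalling adaptor, fell from 5.87–9.13 to 1.01–2.25 CPM (log2 fold change -2.21 ± 0.21, adjusted p = 6.1e-12).

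Genes of the neuromuscular junction and of denervated muscle were more often higher. Of 26 tested, 9 were called higher and 1 lower, beside 6.94% and 6.96% of all genes (median log2 fold change 0.35). Chrna1, the alpha subunit of the muscle acetylcholine receptor, was at 29.1, 34.1, 43.7 and 32.5 CPM in knockouts 6, 7, 8 and 9 and from 8.9 to 13.9 CPM in the controls, median 10.8 (log2 fold change 1.67 ± 0.14, adjusted p = 1.0e-11). Chrnb1, its beta subunit, rose from 11.2–12.7 to 25.2–28.7 CPM (log2 fold change 1.20 ± 0.11, adjusted p = 1.6e-12). Colq, the collagen tail of acetylcholinesterase, rose from 2.19–3.83 to 4.57–6.11 CPM (log2 fold change 0.92 ± 0.17, adjusted p = 5.2e-05). The myogenic factors Myog and Myod1 rose as well (log2 fold changes 1.33 ± 0.26 and 0.83 ± 0.16, largest adjusted p = 4.8e-04), as did the agrin receptor Lrp4, the receptor anchor Rapsn and the myosin-binding protein Mybph (log2 fold changes 0.82 ± 0.21, 0.43 ± 0.12 and 1.29 ± 0.26, largest adjusted p = 0.0087). Hdac4, a deacetylase active in denervated muscle, fell (log2 fold change -0.45 ± 0.11, adjusted p = 0.0021). The call of Rapsn was lost without knockout 7 or knockout 9 (adjusted p = 0.07 and 0.063). Without the keratinocyte-bearing libraries 8 of the list were called higher and 0 lower, and Hdac4 did not pass (adjusted p = 0.14).

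Calcium handling genes split, with 10 of 28 called higher and 3 lower, beside 6.94% and 6.96% of all genes (median log2 fold change 0.06). Mrln encodes myoregulin, which like sarcolipin inhibits the SERCA pump. It was at 401, 362, 409 and 359 CPM in knockouts 6, 7, 8 and 9 and from 114 to 150.4 CPM in the controls, median 128, a rise with no overlap (log2 fold change 1.57 ± 0.06, adjusted p = 2.4e-24). Phospholamban (Pln), the pump's inhibitor in slow and cardiac muscle, and calsequestrin 2 (Casq2) rose too (log2 fold changes 0.66 ± 0.23 and 1.39 ± 0.21, largest adjusted p = 0.045). Calsequestrin 1 of fast fibres (Casq1) and the junctophilins Jph2 and Jph1 fell (log2 fold changes -0.24 ± 0.08, -0.82 ± 0.08 and -0.33 ± 0.06, largest adjusted p = 0.029). The calls of Pln and Casq1 were lost in 8 and 4 of the 12 fits that left out 1 animal (adjusted p of up to 0.23 and 0.095). Cacnb1, a subunit of the voltage sensor of excitation-contraction coupling, rose from 47–59.4 to 69.6–78.4 CPM (log2 fold change 0.48 ± 0.08, adjusted p = 3.2e-06).

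Of 22 fast fibre genes, 8 were called lower and 1 higher, beside 6.96% and 6.94% of all genes (median log2 fold change -0.13). Beside Mylk4, Mylk2, the skeletal myosin light chain kinase, fell from 447–522 to 230.2–297 CPM (log2 fold change -0.86 ± 0.07, adjusted p = 1.6e-13). Tpm1, alpha tropomyosin, fell from 21926–27186 to 15217–16338 CPM (log2 fold change -0.64 ± 0.06, adjusted p = 5.8e-12). Mylpf, the fast regulatory light chain that these kinases phosphorylate, rose from 9376–12528 to 16972–18265 CPM (log2 fold change 0.68 ± 0.07, adjusted p = 3.2e-11). Of 22 slow fibre genes 3 were called higher and 3 lower, 27.3% of the list beside 13.9% of all genes. Their median log2 fold change was 0.26. With the 12 libraries fitted alone, where 2042 of 11976 genes passed, 8 were called higher and 4 lower. Myoglobin (Mb) and the Z-disc protein Actn2 rose with Casq2 (log2 fold changes 0.39 ± 0.07 and 0.40 ± 0.13, largest adjusted p = 0.032). The slow myosin-binding protein Mybpc1 and Sox6, a repressor of slow genes, fell with Car3 (log2 fold changes -0.53 ± 0.11 and -0.20 ± 0.07, largest adjusted p = 0.036). The calls of Actn2 and Sox6 were lost in 5 and 5 of the 12 fits that left out 1 animal (adjusted p of up to 0.11 and 0.16). The fast myosin heavy chain Myh4, at 37117 ± 340.4 against 41073 ± 1787 CPM, did not pass the test (log2 fold change -0.15 ± 0.06, adjusted p = 0.12).

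Genes of insulin signalling and glucose uptake went both ways. Of 24, 3 were called higher and 6 lower, beside 6.94% and 6.96% of all genes. Their median log2 fold change was -0.06, and 0.02 with no scaling factor. Tbc1d1, a Rab GTPase-activating protein that holds back the glucose transporter GLUT4, was at 10.4, 10.7, 12.5 and 7.09 CPM in knockouts 6, 7, 8 and 9 and from 37.5 to 48.9 CPM in the controls, median 42.2 (log2 fold change -2.04 ± 0.12, adjusted p = 3.3e-18). Slc2a3, the transporter GLUT3, went from 2.66–4.96 to 0–0.686 CPM (log2 fold change -3.29 ± 0.34, adjusted p = 1.4e-10). The receptor substrate Irs2, the kinase Akt1 and the GLUT4 vesicle GTPase Rab10 were lower (log2 fold changes -0.96 ± 0.22, -0.46 ± 0.08 and -0.32 ± 0.06, largest adjusted p = 0.0031). The insulin pathway kinases Pik3ca, Akt2 and Pdpk1 were higher (log2 fold changes 0.50 ± 0.06, 0.46 ± 0.07 and 0.24 ± 0.07, largest adjusted p = 0.011). The call of Pdpk1 was lost without knockout 8 (adjusted p = 0.078). Slc2a4, which encodes GLUT4, was at 162 ± 9.21 against 182 ± 14.5 CPM and did not pass the test (log2 fold change -0.17 ± 0.06, adjusted p = 0.067).

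In glycolysis, 8 of 24 genes were called lower and 1 higher, beside 6.96% and 6.94% of all genes (median log2 fold change -0.14). Pfkm, the muscle phosphofructokinase, was at 821, 825, 781 and 812 CPM in knockouts 6, 7, 8 and 9 and from 1169 to 1471 CPM in the controls, median 1280.3 (log2 fold change -0.67 ± 0.07, adjusted p = 1.9e-11). Hexokinase 2 (Hk2), which traps glucose in the cell, and Pfkfb3, which makes the activator of phosphofructokinase, also fell (log2 fold changes -1.07 ± 0.17 and -1.67 ± 0.20, largest adjusted p = 3.2e-05). Ldha, lactate dehydrogenase A, went from 1257–1510.0 to 943–981 CPM (log2 fold change -0.52 ± 0.07, adjusted p = 5.2e-08). The lactate transporters MCT4 (Slc16a3) and MCT1 (Slc16a1), glycerol-3-phosphate dehydrogenase Gpd1 and the muscle enolase Eno3 were lower as well (log2 fold changes -0.59 ± 0.08, -0.51 ± 0.09, -0.52 ± 0.07 and -0.32 ± 0.07, largest adjusted p = 2.8e-04). The call of Eno3 was lost without the 4 keratinocyte-bearing libraries (adjusted p = 0.054). Pyruvate kinase Pkm was the gene called higher (log2 fold change 0.31 ± 0.06, adjusted p = 3.8e-05).

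Of 20 glycogen genes, 8 were called lower and 1 higher, beside 6.96% and 6.94% of all genes (median log2 fold change -0.21). Phka1, the regulatory alpha subunit of muscle phosphorylase kinase, was at 191, 164, 190.3 and 179 CPM in knockouts 6, 7, 8 and 9 and from 343 to 425 CPM in the controls, median 374 (log2 fold change -1.05 ± 0.09, adjusted p = 2.5e-12). Pgm2, a phosphoglucomutase, fell from 522–646 to 312–336 CPM (log2 fold change -0.87 ± 0.07, adjusted p = 1.9e-14). Ppp1r3a, which tethers protein phosphatase 1 to glycogen, fell from 184–215 to 136–153 CPM (log2 fold change -0.49 ± 0.08, adjusted p = 1.2e-05). Ugp2, which makes UDP-glucose, and glycogenin (Gyg) were lower (log2 fold changes -0.36 ± 0.07 and -0.28 ± 0.06, largest adjusted p = 1.5e-04), and so were the phosphorylase Pygm and the phosphatase subunit Ppp1r3c (log2 fold changes -0.30 ± 0.10 and -0.41 ± 0.12, largest adjusted p = 0.037). The synthase Gys1 was higher (log2 fold change 0.26 ± 0.07, adjusted p = 0.0041). The call of Pygm was lost in 8 of the 12 fits that left out 1 animal (adjusted p of up to 0.17). The call of Ppp1r3c was lost without knockout 6 or knockout 9 (adjusted p = 0.055 and 0.1). Without the 4 keratinocyte-bearing libraries, 5 glycogen genes were called lower and 0 higher.

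Of 36 genes that HIF induces, 9 were called lower and 0 higher, beside 6.96% and 6.94% of all genes (median log2 fold change -0.18). Against all 20 floxed controls, where 17.6% of all genes were called, 10 were called lower and 3 higher. Of the 9, Slc2a3, Slc16a3, Ldha, Pfkfb3 and Hk2 are the glucose genes given above. The others were Ak4, a mitochondrial adenylate kinase, and Mxi1, a MYC antagonist (log2 fold changes -1.25 ± 0.22 and -0.64 ± 0.08, largest adjusted p = 3.6e-05), Egln3, the HIF prolyl hydroxylase PHD3, and Bnip3, a mitophagy receptor (log2 fold changes -0.50 ± 0.13 and -0.22 ± 0.07, largest adjusted p = 0.024). For Egln3 the genotypes overlapped and the call was lost without knockout 8 (log2 fold change -0.41, adjusted p = 0.054). The call of Bnip3 was lost without control 9, knockout 7 or knockout 9 (adjusted p = 0.052, 0.079 and 0.077). Car9, a HIF target low in muscle, was at 0.721 to 1.98 CPM in knockouts and 0.605 to 1.38 CPM in controls (log2 fold change 0.36 ± 0.24, adjusted p = 0.39). Against the 20 floxed controls Car9 was called higher (log2 fold change 0.69, adjusted p = 0.019).

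**Figure D3:**
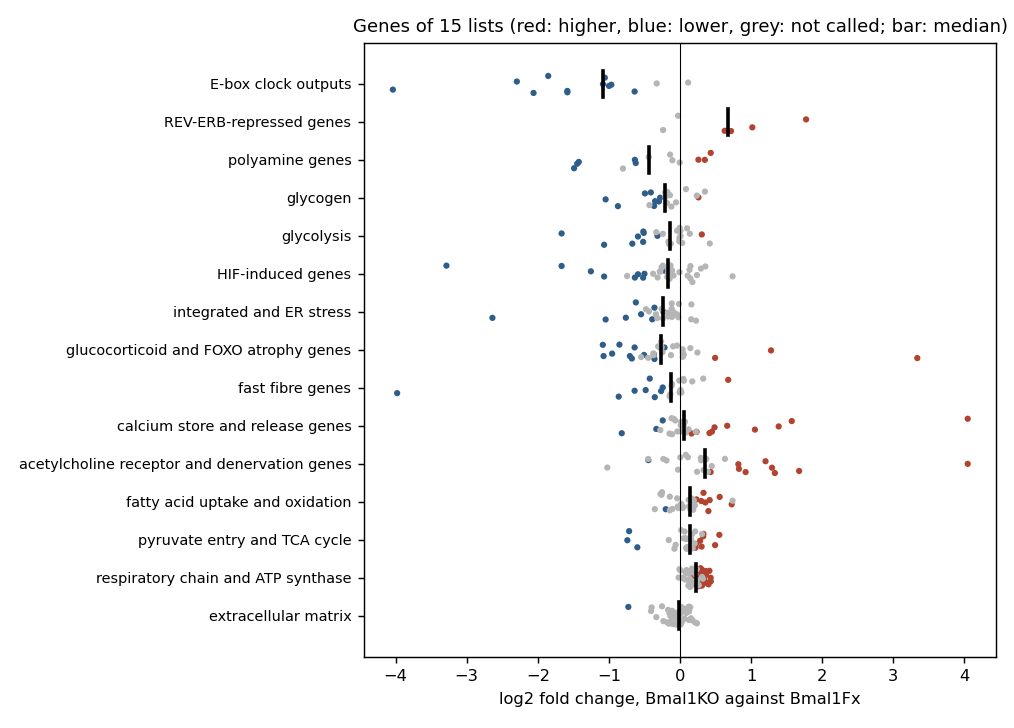
Log2 fold change of Bmal1KO against Bmal1Fx (horizontal axis) for every tested gene of 15 lists (rows); red and blue points are genes called higher and lower, grey points are not called, and black bars are list medians. The E-box outputs lie furthest left, with a median of -1.08, and the respiratory chain genes form a narrow group right of 0, with a median of 0.23.

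Nuclear genes of the respiratory chain and ATP synthase were higher by small amounts. Of 74 tested, 46 were called higher and 0 lower, with a median log2 fold change of 0.23, beside 6.94% of all genes called higher. Atp5o, a subunit of the ATP synthase stalk, was at 734, 774, 707 and 761 CPM in knockouts 6, 7, 8 and 9 and from 506 to 601 CPM in the controls, median 554 (log2 fold change 0.43 ± 0.05, adjusted p = 1.7e-08). Cox5b and Cox5a of complex IV and Atp5g3, the c subunit of ATP synthase, were separate between genotypes in the same way (log2 fold changes 0.41 ± 0.05, 0.40 ± 0.06 and 0.43 ± 0.06, largest adjusted p = 9.9e-07). The median was 0.31 with no scaling factor and 0.22 without the 4 keratinocyte-bearing libraries, where 26 of the 74 were called higher. In 35 of the 74 genes the groups did not overlap, beside 9.95% of all genes tested.

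Transcripts of the mitochondrial genome did not rise with them. Of 10 tested, 0 were called higher and 2 lower, beside 6.94% and 6.96% of all genes (median log2 fold change -0.17). In the fits that left out 1 animal the median ranged from -0.22 to -0.09. mt-Nd1, a complex I subunit, was at 26424, 27109.8, 23412 and 26535 CPM in knockouts 6, 7, 8 and 9 and from 28946 to 37148 CPM in the controls, median 31908, with every knockout below every control (log2 fold change -0.33 ± 0.07, adjusted p = 4.0e-04). mt-Nd3 was also lower (log2 fold change -0.60 ± 0.17, adjusted p = 0.018). That call was lost with the larger set of 20 controls (log2 fold change -0.41, adjusted p = 0.068) and without knockout 9 (log2 fold change -0.55, adjusted p = 0.071). It was also lost without knockout 7 (adjusted p = 0.0504), with no scaling factor (adjusted p = 0.069) and without the 4 keratinocyte-bearing libraries (adjusted p = 0.17). mt-Cytb did not pass (log2 fold change -0.20 ± 0.10, adjusted p = 0.21), and neither did mt-Co1 (log2 fold change -0.32 ± 0.11, adjusted p = 0.058). mt-Co1 was called lower against the 20 controls (adjusted p = 0.015), with the 12 libraries alone (adjusted p = 1.3e-04), by DESeq2 (adjusted p = 0.027) and with no scaling factor (adjusted p = 0.027).

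In the citric acid cycle and pyruvate entry, 8 of 32 genes were called higher and 3 lower, beside 6.94% and 6.96% of all genes. Their median log2 fold change was 0.14. Sucla2, a succinyl-CoA synthetase subunit, was at 382, 387, 382 and 355 CPM in knockouts 6, 7, 8 and 9 and from 232 to 282 CPM in the controls, median 259.7 (log2 fold change 0.55 ± 0.05, adjusted p = 2.1e-11). The malate and isocitrate dehydrogenase genes Mdh2 and Idh3g rose (log2 fold changes 0.33 ± 0.05 and 0.33 ± 0.06, largest adjusted p = 1.4e-05), as did Pdk4, the kinase that shuts pyruvate dehydrogenase (log2 fold change 0.49 ± 0.16, adjusted p = 0.04). The 3 that fell act on pyruvate or its dehydrogenase. They were Pdp1, the phosphatase that activates pyruvate dehydrogenase, the mitochondrial pyruvate carrier Mpc1 and pyruvate carboxylase Pcx (log2 fold changes -0.72 ± 0.12, -0.60 ± 0.11 and -0.74 ± 0.16, largest adjusted p = 5.2e-04). The call of Pdk4 was lost in 10 of the 12 fits that left out 1 animal (adjusted p of up to 0.14). Without the keratinocyte-bearing libraries 3 of the list were called higher and 3 lower.

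Of 35 genes of fatty acid uptake and oxidation, 8 were called higher and 1 lower, beside 6.94% and 6.96% of all genes. Their median log2 fold change was 0.14. Without the keratinocyte-bearing libraries, where 990 of 13973 genes passed, 3 were called higher and 0 lower. Acadm, medium-chain acyl-CoA dehydrogenase, was at 457, 467, 457 and 432 CPM in knockouts 6, 7, 8 and 9 and from 291 to 327 CPM in the controls, median 309 (log2 fold change 0.56 ± 0.06, adjusted p = 2.4e-09). Fabp3, the muscle fatty acid binding protein, Acsl1, which activates fatty acids, and Hadhb of the trifunctional protein rose (log2 fold changes 0.73 ± 0.16, 0.42 ± 0.09 and 0.40 ± 0.08, largest adjusted p = 0.0017). The Fabp3 call was lost without the keratinocyte-bearing libraries (log2 fold change 0.61, adjusted p = 0.12). Of 25 genes of lipid synthesis and droplets, 3 were called higher and 1 lower, 16% of the list beside 13.9% of all genes. Their median log2 fold change was -0.09. Those higher were the droplet proteins Plin5 and Plin3 and the triglyceride lipase Pnpla2 (log2 fold changes 0.77 ± 0.13, 0.39 ± 0.10 and 0.38 ± 0.08, largest adjusted p = 0.0051). The call of Plin3 was lost without knockout 6 and without the 4 keratinocyte-bearing libraries (adjusted p = 0.059 and 0.197). The triglyceride synthase Dgat2 fell (log2 fold change -1.04 ± 0.22, adjusted p = 0.0013). In branched-chain amino acid breakdown 5 of 25 were called, 4 higher and 1 lower, beside 13.9% of all genes. Those higher include Mcee, Pccb and Ivd (log2 fold changes 0.35 ± 0.08, 0.25 ± 0.06 and 0.36 ± 0.09, largest adjusted p = 0.0055). The call of Mcee was lost without the 4 keratinocyte-bearing libraries (adjusted p = 0.16). Oxct1, the ketone body transferase, was the gene that fell (log2 fold change -0.55 ± 0.08, adjusted p = 5.4e-07).

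Of 13 polyamine genes tested, 5 were called lower and 3 higher, beside 6.96% and 6.94% of all genes (median log2 fold change -0.44). The median moved with the fit, from -0.63 without knockout 6 to -0.25 without control 11 or knockout 9, and was -0.14 with the 12 libraries alone, where 11 were tested. It was -0.27 without control 15. Odc1, ornithine decarboxylase, the entry enzyme, was at 6.86, 4.73, 7.41 and 5.21 CPM in knockouts 6, 7, 8 and 9 and from 13.5 to 20.4 CPM in the controls, median 17.1 (log2 fold change -1.49 ± 0.16, adjusted p = 2.4e-09). Amd1, S-adenosylmethionine decarboxylase, fell from 359–509 to 139–167 CPM (log2 fold change -1.45 ± 0.12, adjusted p = 9.9e-11). Its near-identical copy Amd2 had a log2 fold change of -1.42, and the counting could split their reads. Spermine synthase (Sms) and spermine oxidase (Smox) fell (log2 fold changes -0.62 ± 0.08 and -0.64 ± 0.11, largest adjusted p = 1.3e-04). The 3 that rose regulate the ODC1 protein, namely the antizymes Oaz1 and Oaz2 and the antizyme inhibitor Azin1 (log2 fold changes 0.26 ± 0.07, 0.43 ± 0.07 and 0.35 ± 0.11, largest adjusted p = 0.029). The call of Azin1 was lost in 5 of the 12 fits that left out 1 animal (adjusted p of up to 0.18). The call of Oaz1 was lost without the 4 keratinocyte-bearing libraries (adjusted p = 0.083).

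Of 27 genes of the integrated and ER stress responses, 8 were called lower and 0 higher, beside 6.96% and 6.94% of all genes. Their median log2 fold change was -0.23. Beside Chac1, Herpud1, an ER-associated degradation factor, fell from 77–90.4 to 37.7–42.5 CPM (log2 fold change -1.05 ± 0.07, adjusted p = 4.2e-16). The lipoprotein receptor Vldlr, the unfolded-protein factor Xbp1 and Ddit3, which encodes CHOP, fell as well (log2 fold changes -0.76 ± 0.08, -0.55 ± 0.09 and -0.62 ± 0.12, largest adjusted p = 1.3e-04). Of 26 heat shock genes 3 were called lower and 0 higher, which is 11.5% beside 13.9% of all genes. With no scaling factor or against the 20 controls, 2 were called higher and 2 lower. In these 2 settings 1995 and 2304 of 13093 genes were called. The 3 called lower with TMM against the 8 controls were the ER chaperone Hspa5 (log2 fold change -0.23 ± 0.06, adjusted p = 0.0071) and the near-identical pair Hspa1a and Hspa1b (log2 fold changes -1.26 ± 0.41 and -1.55 ± 0.48, largest adjusted p = 0.038). Whether the counting kept the reads of the pair apart was not tested. The call of Hspa5 was lost without knockout 9 (adjusted p = 0.068). With no scaling factor Hspa5 did not pass either (adjusted p = 0.11). The calls of the near-identical pair did not outlast several alternatives, among them the fit of the 12 libraries alone (adjusted p = 0.076 and 0.063).

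Of 32 glucocorticoid and FOXO target genes of muscle atrophy, 12 were called lower and 3 higher, beside 6.96% and 6.94% of all genes. Their median log2 fold change was -0.27. Fbxo32, the ubiquitin ligase atrogin-1, was at 319, 266, 258 and 263 CPM in knockouts 6, 7, 8 and 9 and from 399.8 to 624 CPM in the controls, median 497 (log2 fold change -0.85 ± 0.12, adjusted p = 6.9e-06). Trim63, which encodes MuRF1, also fell (log2 fold change -0.51 ± 0.17, adjusted p = 0.045). Glutamine synthetase (Glul) and the glucocorticoid-induced genes Tsc22d3, Fkbp5 and Cebpd were lower (log2 fold changes -1.09 ± 0.10, -0.68 ± 0.10, -0.71 ± 0.17 and -1.08 ± 0.21, largest adjusted p = 0.0044). The call of Trim63 was lost in 7 of the 12 fits that left out 1 animal (adjusted p of up to 0.15). The call of Fkbp5 was lost with the 12 libraries alone (adjusted p = 0.059). Cdkn1a, Mt1 (log2 fold change 1.28 ± 0.22, adjusted p = 9.0e-05) and Pdk4 were the 3 called higher. Without the keratinocyte-bearing libraries 8 were called lower and 2 higher.

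Of 33 NRF2 and glutathione genes, 9 were called lower and 4 higher, beside 6.96% and 6.94% of all genes (median log2 fold change -0.14). Without the keratinocyte-bearing libraries 6 were called lower and 1 higher. Gstm7, a glutathione transferase, rose from 1.19–3.24 to 7.25–10 CPM (log2 fold change 1.86 ± 0.23, adjusted p = 1.8e-08). Gpx3, the secreted glutathione peroxidase, fell from 127–157 to 67.8–81.4 CPM (log2 fold change -0.97 ± 0.12, adjusted p = 3.3e-07). The glutathione synthesis subunits Gclc and Gclm and the sulfiredoxin Srxn1 fell (log2 fold changes -0.49 ± 0.13, -0.33 ± 0.11 and -0.68 ± 0.18, largest adjusted p = 0.042). The call of Gclm was lost in 9 of the 12 fits that left out 1 animal (adjusted p of up to 0.14). The call of Gclc was lost without knockout 9 (adjusted p = 0.051). The call of Srxn1 was lost with the 12 libraries alone (adjusted p = 0.064). Of 25 p53 target genes, a list that holds Cdkn1a, 3 were called higher and 4 lower, beside 6.94% and 6.96% of all genes. The death receptor Eda2r and the apoptosis gene Bbc3 rose with Cdkn1a (log2 fold changes 0.90 ± 0.12 and 1.21 ± 0.28, largest adjusted p = 0.0015). Tigar, Phlda3, Polk and Ccng1 fell (log2 fold changes -0.68 ± 0.08, -0.69 ± 0.09, -0.92 ± 0.13 and -0.28 ± 0.06, largest adjusted p = 6.2e-04).

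Of 41 extracellular matrix genes 1 was called, 2.44% beside 13.9% of all genes. It was Postn, which encodes periostin (log2 fold change -0.73 ± 0.24, adjusted p = 0.034). With no scaling factor Postn did not pass (adjusted p = 0.072). The call of Postn was lost in 6 of the 12 fits that left out 1 animal (adjusted p of up to 0.1). Of 21 genes of NAD synthesis and sirtuins 2 were called, 9.52% beside 13.9% of all genes. They were the kinase Nmrk2 and the oxidase Aox1 (log2 fold changes -0.88 ± 0.26 and -0.48 ± 0.15, largest adjusted p = 0.018). The call of Nmrk2 was lost without knockout 7, knockout 8 or knockout 9 (adjusted p = 0.064, 0.054 and 0.059). The call of Aox1 was lost without knockout 7 or knockout 8 (adjusted p = 0.074 and 0.11). Of 25 myokine and secreted factor genes 5 were called lower and 0 higher, beside 6.96% and 6.94% of all genes. Igfbp5, a binding protein of insulin-like growth factors, fell from 249–338 to 97–123 CPM (log2 fold change -1.49 ± 0.10, adjusted p = 3.6e-14). Dkk2 and myostatin (Mstn) fell with Dkk3 (log2 fold changes -0.75 ± 0.15 and -0.37 ± 0.10, largest adjusted p = 0.0078). The call of Mstn was lost without the 4 keratinocyte-bearing libraries (adjusted p = 0.084).

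Of 14 lists of cell type markers, 4 differed in their share of the counts at a Benjamini-Hochberg adjusted p under 0.05 (exact two-sided permutation tests, 4 against 8 animals, smallest possible p = 0.00202). With summed log2 CPM in place of the share, 1 list passed. In bulk tissue, fewer cells of a type and less RNA per cell cannot be told apart. The adipocyte list fell from 0.27 ± 0.0213% to 0.0893 ± 0.0117% (exact permutation p = 0.00202, adjusted p = 0.00943), and Car3, which muscle also expresses, made up most of it in the controls. The other 11 adipocyte markers summed to 500.1 to 613 CPM in knockouts and 445 to 774 CPM in controls, and none of the 11, Adipoq, Lep and Plin1 among them, was called. The satellite cell list rose from 0.0081 ± 0.000532% to 0.0114 ± 0.000376% (exact permutation p = 0.00202, adjusted p = 0.00943). Chodl, Itga7 and Sdc4, 3 of its 8 tested genes, were called higher (log2 fold changes 0.51 ± 0.11, 0.45 ± 0.11 and 0.49 ± 0.15, largest adjusted p = 0.024). The call of Sdc4 was lost without knockout 6 or knockout 9 (adjusted p = 0.051 and 0.1). The call of Itga7 was lost without the 4 keratinocyte-bearing libraries (adjusted p = 0.096). Pax7, the defining transcription factor, was at 2.58 ± 0.571 against 1.79 ± 0.325 CPM and did not pass (log2 fold change 0.51 ± 0.25, adjusted p = 0.19).

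The B cell and plasma cell list rose from 0.00991 ± 0.00592% to 0.035 ± 0.00349% (exact permutation p = 0.00202, adjusted p = 0.00943). Without Ighm, the other markers of the list summed to 2.86 to 56.2 CPM in knockouts and 2.29 to 106 CPM in controls. Ighm, the constant region of the IgM heavy chain, was at 342, 311, 321 and 346 CPM in knockouts 6, 7, 8 and 9 and from 37.3 to 131 CPM in the controls, median 80.7 (log2 fold change 1.94 ± 0.22, adjusted p = 1.5e-07). The B cell markers Cd79a and Cd22 were at or near 0, with 0 counts over the 4 knockouts together and 1 and 2 over the 8 controls. Igkc and Jchain did not pass (adjusted p = 0.98 and 0.97). Ighg2c, the constant region of IgG2c, went the other way, from 3.8–10 CPM in controls to 0–0.539 CPM in knockouts (log2 fold change -4.64 ± 0.65, adjusted p = 4.8e-06), with no overlap.

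The tendon list fell from 0.0133 ± 0.0011% to 0.0107 ± 0.00184% (exact permutation p = 0.0101, adjusted p = 0.0354). Of its genes, Thbs4 fell (log2 fold change -0.69 ± 0.09, adjusted p = 8.6e-08) and Scx rose (log2 fold change 0.68 ± 0.16, adjusted p = 0.0015). Without Thbs4, the other 7 markers summed to 39.3 to 65.9 CPM in knockouts and 38.4 to 58.4 CPM in controls. The keratinocyte list was at 0.00535 ± 0.00471% in knockouts and 0.0018 ± 0.00114% in controls (exact permutation p = 0.0404, adjusted p = 0.0943). Of its 9 genes, Trp63 and Sfn were called (log2 fold changes 1.12 ± 0.13 and 1.24 ± 0.37, largest adjusted p = 0.017). The call of Sfn was lost without knockout 6 (adjusted p = 0.15). Macrophage markers were at 0.0111 ± 0.00094% and 0.0148 ± 0.0029% (exact permutation p = 0.0323, adjusted p = 0.0905). Of these, C1qc and Cd68 were called lower (log2 fold changes -0.53 ± 0.15 and -0.88 ± 0.28, largest adjusted p = 0.03). The call of Cd68 was lost in 6 of the 12 fits that left out 1 animal (adjusted p of up to 0.15). The call of C1qc was lost without knockout 9 (adjusted p = 0.051). The lists of endothelial cells, smooth muscle and pericytes, fibro-adipogenic progenitors, T and NK cells, neutrophils, red cells, Schwann cells and muscle fibres had adjusted p-values of 0.194 to 0.97. The part of these cell types in the gene lists above was not tested.

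Genes near Arntl on chromosome 7 were counted after their values had been seen. Within 5 Mb of Arntl, 53 other genes were tested and 11 (20.8%) were called, 9 lower and 2 higher, beside 13.9% of all genes. They include Tead1 at 0.301 Mb, Mical2 at 0.794 Mb and Dkk3 at 1.05 Mb (log2 fold changes -0.36 ± 0.08, -1.62 ± 0.12 and -3.57 ± 0.26, largest adjusted p = 4.2e-04). Further off, Wee1 lay at 3.06 Mb and Scube2 at 3.34 Mb (log2 fold changes -0.99 ± 0.28 and 1.14 ± 0.29, largest adjusted p = 0.011). The call of Wee1 was lost without knockout 8 (adjusted p = 0.075). The call of Scube2 was lost without knockout 7 (adjusted p = 0.06). The adjoining gene Btbd10, at 0.0015 Mb, did not pass (log2 fold change 0.14 ± 0.15, adjusted p = 0.64).

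The same contrast had been made in batch 1 with other animals, 5 knockouts and 7 controls, so that no library is shared. There, 1149 of 12762 genes passed (9%), 488 higher (3.82%) and 661 lower (5.18%). Of the calls 42.5% were higher, and 76.8% of 1598 with no scaling factor. Of the 1796 genes called in batch 2 and tested in both, 1744 (97.1%) had the same sign in batch 1, beside 67.7% of all 12454 genes tested in both, and 862 (48.0%) were called there in the same direction, 376 higher and 486 lower. The 862 were 75.2% of the 1146 genes called in batch 1 and tested in both, and 0 genes were called in opposite directions. The 934 genes called in batch 2 alone had a median absolute log2 fold change of 0.39 in batch 2, and the 862 a median of 0.57.

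The leading genes had like values in both batches. The log2 fold change of Sln was 4.05 in batch 2 and 3.62 in batch 1, that of Cdkn1a 3.34 and 3.10, and that of Mylk4 -3.98 and -3.85. In the same order, Car3 was at -2.73 and -2.72, Tbc1d1 at -2.04 and -2.08, and Nr1d2 at -2.06 and -1.78 (log2 fold changes). Arntl itself was at -1.02 in batch 1 (adjusted p = 0.0025), against -0.24 here. Some clock calls of batch 2 did not pass in batch 1: Cry1 at 0.42 (adjusted p = 0.073), Npas2 at 1.11 (adjusted p = 0.27) and Per1 at 0.20 (adjusted p = 0.84).

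A direct test of the difference between the batches' knockout effects called 0 of 13926 genes by edgeR (0%) and 0 by DESeq2, with 715 genes at an unadjusted p under 0.05. The smallest adjusted p was 0.588, for Shisa2, whose log2 fold change was 0.76 in batch 2 and 0.15 in batch 1. A p that misses the threshold does not show that the effects were equal. Across the 12454 genes tested in both batches the log2 fold changes correlated at a Pearson r of 0.65, and at 0.89 over the genes called in either; genes within a batch share their libraries and are not independent.

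**Figure D4:**
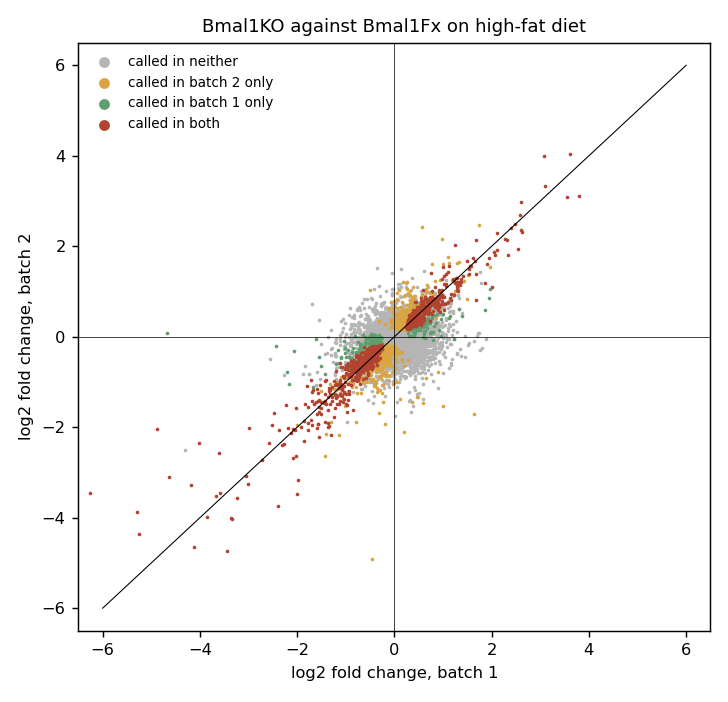
Log2 fold change of Bmal1KO against Bmal1Fx on high-fat diet in batch 2 (vertical axis) against batch 1 (horizontal axis), 1 point per gene tested in both (12454), coloured by the batch in which it was called; the diagonal marks equal values. The 862 genes called in both (red) lie in the quadrants of equal sign.

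The double knockouts of batch 2, which lack Vhl as well and so keep HIF proteins, were compared with the single Bmal1 knockouts, each against the floxed controls of its own line. The 2 effects differed for 2191 of 13093 genes (16.7%), 1007 with a higher value in the double knockout (7.69%) and 1184 with a lower one (9.04%). Of these 46.0% were higher, and 89.5% of 2804 with no scaling factor. Among genes that the Bmal1 knockout lowered, Stab2 was at 4.78 to 7.26 CPM in the controls of the double line and 14.8 to 18.6 CPM in double knockouts, a rise where the single knockout fell (difference of log2 fold changes 5.01 ± 0.25, adjusted p = 5.1e-21). Ak4 was at 1.14 to 2.96 and 158 to 171 CPM (difference 7.56 ± 0.25, adjusted p = 2.2e-27) and Egln3 at 35 to 46.5 and 633 to 792 CPM (difference 4.57 ± 0.19, adjusted p = 1.4e-17).

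Tph1, already higher in the single knockout, reached 58.5 to 109 CPM in double knockouts against 0.443 to 1.11 CPM in their controls (difference 4.71 ± 0.39, adjusted p = 1.7e-11), and Car9 reached 39.3 to 48.5 against 0.435 to 1.07 CPM (difference 5.68 ± 0.31, adjusted p = 1.6e-19). Mylk4 fell further. Double knockouts were at 2.85 to 3.91 CPM and their controls at 576 to 687 CPM. The log2 fold change was -7.47, beside -1.82 in the Vhl knockout alone and -3.98 in the Bmal1 knockout alone (difference -3.49 ± 0.16, adjusted p = 6.3e-19). Mybph, which rose in the single knockout, fell in the double knockout (log2 fold change -0.78, adjusted p = 0.044, in a comparison where 35.4% of all genes were called). The difference for Mybph was -2.07 ± 0.40 (adjusted p = 4.5e-04). The clock output Nr1d2 had a difference of 0.01 ± 0.18 (adjusted p = 0.99).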

How the data were processed

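RNA of snap-frozen whole gastrocnemius was made into libraries with the Lexogen QuantSeq 3′ forward kit from 300.0 ng, per the labels' protocols. The authors deposited, per batch, raw HTSeq counts per gene symbol and a table of normalized counts (used here as signal). The submitters' processing notes name FastQC 0.11.4, STAR 2.6.0, HTSeq, edgeR 3.26.8 and the builds mm10 and GRCm38.p4. Of the gene symbols in the batch 2 counts, 27 had been turned into dates.

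The counts were tested here with edgeR 4.0.16 in R 4.3.3 (filterByExpr, TMM, robust quasi-likelihood fit, adjusted p under 0.05 over all genes) in 1 fit of the 32 libraries of batch 2; batch 1 (19 libraries) and the joined tables (51) were fitted the same way. DESeq2 1.42.0 on the counts and limma 3.58.1 on the deposited normalized signal were alternatives. The test was checked on simulated counts. Promoter sequences are from RefSeq (GRCm38.p6) and positions from GENCODE (GRCm38).

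Named genes are Arntl, the 12 highest and 12 lowest called genes with an average log2 CPM of at least 2 (no predicted, Riken or mitochondrial genes), up to 4 members per list with the smallest p, and the 5 highest and 5 lowest for the difference of effects; other list members and the neighbours of Arntl were named after their values were seen. Some list members are not reported here. The gene lists, markers and comparisons were chosen with earlier results of these data known. Depth was 9910516 to 14005155 counts per library; without molecular identifiers, precision is known from the animals alone.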

Additional observations from a re-analysis of the deposited data

Results flagged for a closer look

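Values of 1 animal far from its group were looked for in 270 groups of animals (named genes, marker lists and the mitochondrial share, in knockouts and controls apart), by the gap to the nearest animal over the group's range; 12 were found, and chance gives about 1 in 20 groups, which would be 13.5. Among knockouts, Chrna9 was high in knockout 7 (3.37 CPM, others 1.44 to 1.75), Fbxo32 in knockout 6 (319 CPM, others 258 to 266) and Gpx3 in knockout 9 (81.4 CPM, others 67.8 to 70.0). Nr1d1 was low in knockout 9 (16.5 CPM, others 19.1 to 19.5), as was Sucla2 (355 CPM, others 382 to 388). The muscle fibre markers summed to 169600 CPM in knockout 8, against 161800 to 162400 in the others.

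Among controls, Chrna9 (0.413 CPM, others 0 to 0.173) and Rasd2 (71.0 CPM, others 42.3 to 51.6) were high in control 8, and Hspa1b was high in control 9 (60.1 CPM, others 9.31 to 31.2). Tef was low in control 12 (117 CPM, others 134 to 148) and Vldlr in control 13 (198 CPM, others 245 to 280). The B cell and plasma cell markers summed to 233 CPM in control 12, against 37.6 to 115 in the others.

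Effects of the double knockout and of the Bmal1 knockout, each against its own floxed controls, differed most on the log2 scale for Ak4 (7.56), Car9 (5.68), Stab2 (5.01), Tph1 (4.71) and Egln3 (4.57) upward. Downward they differed most for Mylk4 (-3.49), Otub2 (-2.18), Mybph (-2.07), Snai3 (-2.01) and Rims4 (-1.98). The difference itself was tested and passed an adjusted p under 0.05 in these 10 genes.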

How the results depend on the processing

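The count of 1820 genes lay between 1214 (adjusted p under 0.01) and 2304 (all 20 floxed controls) under the other planned settings except the block, and between 1409 (without knockout 8) and 1801 (without control 13) when 1 animal was left out. DESeq2 called 1924 and limma 1810. 2 settings moved it by over 1.5 times: 990 without the 4 keratinocyte-bearing libraries, an alternative chosen after seeing the data, where fewer animals are left, and 598 with the animal number as a replicate block. By title, only the numbers 8 and 9 occur in both genotypes (correlations of deviations -0.145 and 0.112). By column header, 9, 10 and 11 do (correlations 0.0664, 0.0139 and -0.0681). The labels pair no animals, so the samples share only a number. Of the 598, 565 were among the 1820. The block gave 717 calls in place of 2191 for the difference from the double knockout, and turned Sirt2, not called, from 0.14 to -0.0068. At an adjusted p under 0.01, 725 genes were called in batch 1 and 1297 for the double knockout difference. With 1 animal left out, these counts were 983 to 1133 and 1889 to 2220, and the difference between batches stayed at 0 to 0. That difference called 1 gene when only the 4 Bmal1 groups on high-fat diet were fitted. The marker lists that passed numbered 3 to 4 with 1 animal left out, against 4, and 1 with summed log2 CPM; the cause was not tested. The difference in mitochondrial share, -1.76 percentage points, ranged from -2.43 to -0.51 with 1 animal left out. It was -2.83 without the 4 keratinocyte-bearing libraries. Of the values of single genes under other settings, 4570 kept their direction and side of the threshold, 330 lost and 28 gained a call. The motif shares of called genes cover only the 685 of 909 higher and 679 of 911 lower genes with a promoter window, under 80%. Of the genes tested, 9522 of 13093 had a window. Depth limits genes under about 1 CPM, where 1 animal gives some 10 counts.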
